A study of Mus musculus with 4 samples.

Results

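*Per1*, *Per2* and *Per3* (the Period genes) and *Cry1* and *Cry2* (the cryptochromes) encode the negative limb of the mammalian circadian clock. Their probes were taken by gene name: every probe of the array annotated to 1 of these 5 genes was followed, well above background or not. This gave 7 probes, each printed as 1 spot, of the 39429 probes on the array, and 5 of its 30175 gene names. RNA came from NIH-3T3:Per2-Luc, an established mouse fibroblast line with a luciferase gene under the *Per2* promoter, and each of 4 conditions was read on a one-color array of its own, all on 1 slide. The control received 0 mM H2O2 and fresh medium, and its label places it at 4 h. The other 3 arrays carried RNA taken 4 h, 20 h and 32 h after a critical oxidative stress pulse (cOS-pulse) of 5 mM H2O2 for 10 min. The 4 h array addressed genes raised early after the pulse, and the 20 h and 32 h arrays addressed later, circadian changes. Without replicates no test exists, and differences are set against the error of the spot and the spread of all probes. The 20 h and 32 h arrays differ from the single control both in the pulse and in the hour of harvest, and these cannot be told apart.

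In the circadian clock of mammalian cells, BMAL1 (gene *Arntl*) and CLOCK bind E-box elements and drive transcription of the *Per* and *Cry* genes. PER and CRY proteins then form complexes, enter the nucleus and repress BMAL1:CLOCK, and their phosphorylation and ubiquitin-dependent degradation let the next cycle begin. CRY1 and CRY2 are the stronger repressors, while PER1 and PER2 carry the CRY proteins and the kinases, and *Per1* and *Per2* are also known as fast-responding genes that resetting stimuli induce through cAMP response elements (CRE) and, for *Per2*, heat shock elements. PER3 is the least required of the PER proteins for rhythmicity. Fibroblasts hold this clock in every cell, and a stimulus that acts on all cells of a dish at once can set them to a common phase.

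The stretches before the transcription starts of these genes are shown because E-boxes, D-boxes and CREs there are the elements through which the loop is known to act. RefSeq gave windows for 4 of the 5 genes, 2 of them for *Per1*, and the 250 bases before each start are printed 5′ to 3′ on the strand of the gene, with matched motifs in capitals. The *Cry1* window is chr10:85185055-85185304 (− strand), the *Cry2* window chr2:92434070-92434319 (− strand), the *Per1* windows chr11:69098699-69098948 and chr11:69099902-69100151 (+ strand), and the *Per3* window chr4:151044666-151044915 (− strand), all in GRCm38.p6.
Cry1: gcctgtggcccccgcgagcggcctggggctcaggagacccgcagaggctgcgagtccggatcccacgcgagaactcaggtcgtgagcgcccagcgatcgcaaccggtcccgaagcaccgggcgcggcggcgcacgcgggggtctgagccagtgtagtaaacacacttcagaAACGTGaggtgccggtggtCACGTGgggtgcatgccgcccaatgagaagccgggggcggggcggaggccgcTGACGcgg
Cry2: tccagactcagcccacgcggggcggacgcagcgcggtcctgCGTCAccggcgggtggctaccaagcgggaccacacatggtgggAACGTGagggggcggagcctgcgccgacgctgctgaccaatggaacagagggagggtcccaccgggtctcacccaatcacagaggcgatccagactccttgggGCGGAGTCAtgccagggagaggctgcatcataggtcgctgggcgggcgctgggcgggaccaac
Per1, first start: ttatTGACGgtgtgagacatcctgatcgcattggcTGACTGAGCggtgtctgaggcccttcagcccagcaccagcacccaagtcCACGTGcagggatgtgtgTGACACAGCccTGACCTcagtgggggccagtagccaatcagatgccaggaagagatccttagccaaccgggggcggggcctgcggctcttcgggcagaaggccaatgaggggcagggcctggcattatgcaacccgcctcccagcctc
Per1, second start: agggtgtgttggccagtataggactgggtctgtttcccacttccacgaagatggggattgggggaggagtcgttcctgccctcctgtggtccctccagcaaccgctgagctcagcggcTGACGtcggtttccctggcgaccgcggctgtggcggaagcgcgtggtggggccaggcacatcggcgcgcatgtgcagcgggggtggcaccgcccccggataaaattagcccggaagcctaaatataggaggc
Per3: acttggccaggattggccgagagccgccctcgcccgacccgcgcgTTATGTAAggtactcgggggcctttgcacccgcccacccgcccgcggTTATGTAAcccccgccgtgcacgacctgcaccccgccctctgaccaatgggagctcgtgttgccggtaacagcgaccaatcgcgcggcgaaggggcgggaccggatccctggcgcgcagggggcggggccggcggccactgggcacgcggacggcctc

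8 motifs were searched on both strands: the E-box CACGTG, the E′-box CACGTT, the D-box TTATGTAA, the CRE TGACGTCA, the short CRE TGACG, the heat shock element GAANNTTC, the antioxidant element TGACNNNGC and the ROR element AGGTCA. *Cry1* held an E′-box 79 bases and an E-box 60 bases before the start, and a short CRE 8 bases before it. *Cry2* held a short CRE at 209 bases, an E′-box at 166 bases and an antioxidant element at 63 bases before the start. Of all 32851 windows of this length, 6.02% held an E-box and 3.85% an E′-box, so each letter string is uncommon but far from particular to clock genes. The first start of *Per1* had an E-box at 166 bases, flanked by antioxidant elements at 215 and 148 bases, a short CRE at 246 bases and a ROR element at 137 bases. Its second start had a short CRE at 132 bases and no other match. *Per3* differed from the others in holding D-boxes, at 205 and 158 bases before the start, a string present in 0.819% of all windows. Short CREs were found in 17.8% of all windows, antioxidant elements in 10.2% and ROR elements in 14%. The full CRE (1.55% of all windows) and the heat shock element (6.69%) matched none of the 5 windows, which says only that these letters are not in these stretches. A match is a string of letters, and binding was not measured.

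The arrays read these genes through 60-base probes, whose positions in the array annotation are in mm9, a different build from that of the promoter windows. The annotation gives a transcript for each probe and not the exon or UTR. *Cry1* has 1 probe (NM_007771, chr10:84594731-84594790, − strand). *Cry2* has 1 probe for transcript variant 1 (NM_009963, chr2:92243807-92243866, − strand) and 1 for transcript variant 2 (NM_001113333, chr2:92251417-92251476, − strand), 7610 bases apart. *Per1* has 1 probe for its RefSeq transcript (NM_011065, chr11:68923364-68923423, + strand) and 1 for a cDNA clone (AK081813, chr11:68919895-68919954, + strand), which lies 3469 bases nearer to the start of the gene. *Per2* (NM_011066, chr1:93313046-93313105, − strand) and *Per3* (NM_011067, chr4:150379256-150379315, − strand) have 1 probe each. The clone probe of *Per1* is set apart by its sequence as well, and its last 30 bases are printed for that reason, with the final AG in capitals.
Per1 clone probe, last 30 bases: ctccttgttaaccctggtctttccccacAG
A pyrimidine-rich stretch closed by AG is the form that the 3′ end of an intron takes, and whether this probe reads spliced or unspliced RNA was not tested. Whether the RNA of the luciferase reporter holds the stretch probed in *Per2* is not given in the sources used here.

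Signals are the values of the scanner software after subtraction of the background of each spot, in arbitrary units, and the error beside each is the software's error for that spot, which does not cover differences between cultures. Between 52.7% and 59.1% of all probes were well above background by the software's flag, no spot was saturated, and none of the 7 spots was flagged as an outlier on any array. All 10 fibroblast markers were well above background on every array, as were 1 of 5 epithelial, 2 of 5 blood, 2 to 3 of 4 endothelial and 2 to 3 of 4 neural markers, with *Epcam*, *Cdh1* and *Ptprc* on none and 0 to 1 of 3 liver markers. At 4 h, 2 of 6 epithelial, 1 of 7 blood and 1 of 5 endothelial probes were past 2-fold upward, beside 6.77% of all probes. Of the 8 neural and 3 liver probes, 0 were. Downward were 1 of 12 fibroblast probes, beside 4.94%. At 20 h, 3 of these 12 were past 2-fold downward, beside 1.87%, and 0 upward. With arrays scaled by the median, by spike-in controls or not at all, the epithelial count was 0 and the 20 h fibroblast count 1. The 4 h fibroblast count was 3 by the median and by spike-in controls, 2 by quantile normalization and 1 without scaling. The part of these markers in the results for *Per* and *Cry* was not tested. Of the 7 *Per* and *Cry* probes, 4 were well above background in the control, 5 at 4 h, 6 at 20 h and 5 at 32 h, and 3 were so on all 4 arrays: both *Cry2* probes and the RefSeq probe of *Per1*. Levels of different probes are not compared with each other, since probes differ in brightness.

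**Figure D1:**
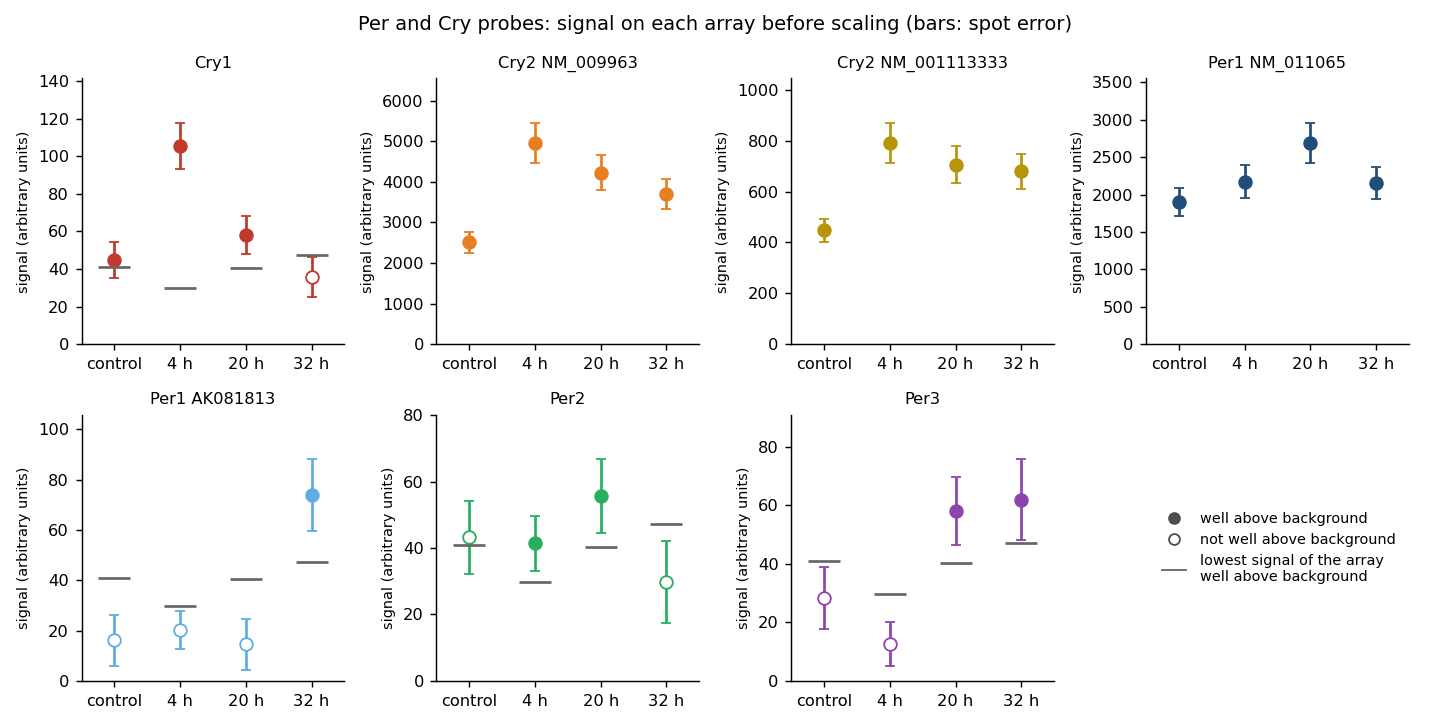
Signal (arbitrary units, y axis from 0) of each Per and Cry probe on the control, 4 h, 20 h and 32 h arrays, before scaling between arrays. Filled points were well above background and open points were not, bars are the spot error of the scanner software, and grey dashes mark, for the dim probes, the lowest signal well above background on each array; Cry1 and both Cry2 probes were highest at 4 h, whereas Per2, Per3 and the Per1 clone probe lay within a few spot errors of the dashes.

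*Cry1*, a repressor of BMAL1:CLOCK, was dim. Its signal was 44.6 ± 9.56 in the control, 105.6 ± 12.2 at 4 h, 58.1 ± 10.2 at 20 h and 35.8 ± 10.6 at 32 h, and it was well above background on the first 3 of these. The 4 h array stood alone above the others, while the 20 h and control signals lay within their spot errors of each other. For *Cry2*, the partner repressor, the variant 1 probe gave 2509 ± 251 in the control, 4962 ± 496 at 4 h, 4230 ± 423 at 20 h and 3707 ± 371 at 32 h. The variant 2 probe gave 447.8 ± 45.8 in the control, 790.8 ± 79.4 at 4 h, 706 ± 71.2 at 20 h and 678.8 ± 68.8 at 32 h. Both *Cry2* probes were thus lowest in the control and highest at 4 h. Before scaling, the 20 h signals overlapped within their errors with those at 4 h and with those at 32 h. For the variant 2 probe the 4 h and 32 h signals overlapped as well.

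The RefSeq probe of *Per1*, a light- and stress-responsive repressor gene, gave 1897 ± 190 in the control, 2173 ± 217 at 4 h, 2691 ± 269 at 20 h and 2156 ± 216 at 32 h. Its highest signal was at 20 h before scaling, and at 4 h after it, so its order among the arrays depended on the scaling. The clone probe of *Per1* gave 16.2 ± 10.2 in the control, 20.1 ± 7.60 at 4 h, 14.6 ± 10.1 at 20 h and 73.7 ± 14.3 at 32 h, and only the last was well above background. *Per2*, the gene whose promoter drives the reporter of this line, gave 43.2 ± 11.1 in the control, 41.4 ± 8.25 at 4 h, 55.6 ± 11.1 at 20 h and 29.7 ± 12.3 at 32 h. It was well above background at 4 h and 20 h and not in the control or at 32 h, and its highest and lowest signals differed by little more than the sum of their errors. *Per3* gave 28.4 ± 10.5 in the control, 12.6 ± 7.5 at 4 h, 58.0 ± 11.7 at 20 h and 61.8 ± 13.8 at 32 h, with the last 2 well above background.

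To compare arrays, each log2 signal was taken relative to the 75th percentile of its array. A ratio counts as measured if the spots on both arrays passed the background flag. If 1 passed, the ratio is a bound, for which the dim array enters with its own signal or with the faintest signal that passed there, whichever was larger. If this left nothing above 0, or if neither spot passed, there is no ratio.

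At 4 h after cOS-pulse, both cryptochromes were higher than in the control. *Cry1* was 2.88-fold higher, with a log2 ratio of 1.52 ± 0.35 (spot error). *Cry2* was 2.40-fold higher by the variant 1 probe (log2 ratio 1.27 ± 0.20) and 2.15-fold by the variant 2 probe (1.10 ± 0.21). These 2 probes are annotated to different transcripts of 1 gene, share their RNA and differed by 0.16 ± 0.29. Whether each reads only its own variant was not tested. *Per1* was 1.39-fold higher by its RefSeq probe (0.48 ± 0.20). *Per2* was 1.17-fold higher by its own scaled signals, a log2 ratio of 0.22 that is smaller than its spot error of 0.47. It counts as a bound because the control spot missed the flag, though its signal was above the faintest that passed there. This bound existed under 2 of 6 scalings, the unscaled signal of *Per2* being slightly below that of the control. *Per3* and the clone probe of *Per1*, not well above background on either array, had no ratio. In RNA from whole dishes, a change in the share of cells of a kind, such as by cell death, and a change of RNA per cell cannot be told apart.

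With 2-fold as the threshold, 3 of the 7 probes (of 2 genes) were higher at 4 h, beside 6.77% of all 39429 probes, and 0 were lower, beside 4.94%. Over every probe with a measured ratio, the median log2 ratio was 0.17 at 4 h, and 5% of them lay below -1.22 and 5% above 1.24. Within these ratios, *Cry1* was above 97.2% of probes, the *Cry2* probes above 95.3% and 93.2%, and *Per1* above 72.2%. Against the median of all probes, *Cry1* was higher by 1.35, the variant 1 probe of *Cry2* by 1.09, the variant 2 probe by 0.93 and *Per1* by 0.31 on the log2 scale.

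**Figure D2:**
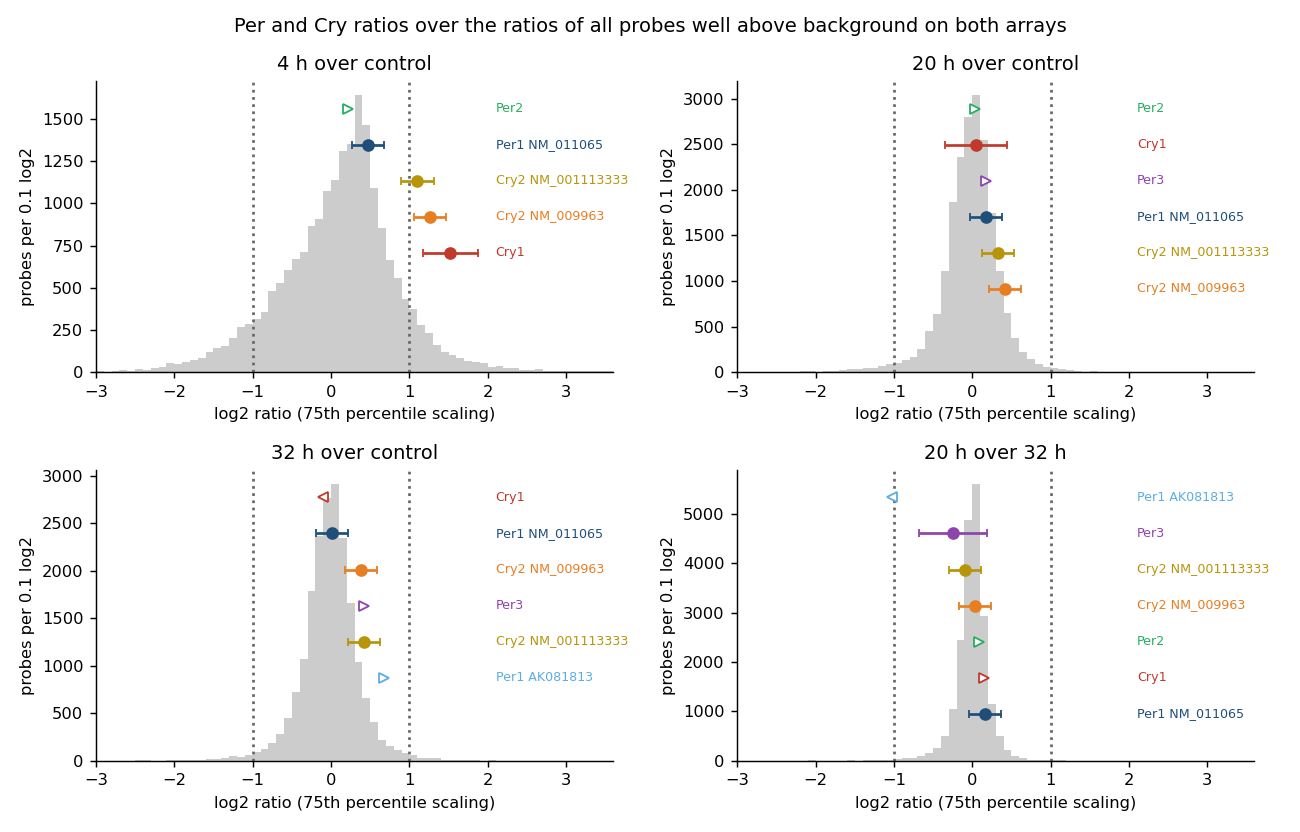
Log2 ratios (x axis, 75th percentile scaling) of the Per and Cry probes in the 4 comparisons, over the distribution of every measured probe (grey, probes per 0.1 log2). Circles are measured ratios with spot errors, open triangles are bounds pointing away from 0, and dotted lines mark 2-fold. The cryptochromes lie beyond the line at 4 h. At 20 h and 32 h over the control they lie inside it, with both Cry2 probes above most of the measured probes.

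The contrast between the cryptochromes and *Per1* does not depend on the scaling by 1 constant per array, since such a constant cancels. At 4 h the log2 ratio of *Cry1* exceeded that of *Per1* by 1.05 ± 0.41, 2.58 times its spot error, and those of *Cry2* exceeded it by 0.79 ± 0.29 and 0.62 ± 0.29. *Cry1* exceeded the *Cry2* probes by 0.26 ± 0.41 and 0.42 ± 0.41, close to or within the spot error. As a check of these errors, probes printed as 10 spots gave a spread between single-spot log2 ratios, averaged over the 4 comparisons, in which the array scaling cancels. Its median SD was 0.05 for probes with signals of 400 to 6000 (the range of *Cry2* and of the *Per1* RefSeq probe), 0.16 for signals of 60 to 400, and 0.62 for signals under 60, the range of all *Per2* signals and of most of those of *Per3* and *Cry1*. Probes printed as 10 spots were sorted by their mean signal over the 4 arrays. The spot errors of the bright members are thus wider than the scatter of repeated spots. For the dim members they lay on both sides of it, as far as the 0.62 goes. Over the control, the error of *Per2* was 0.47 at 4 h and 0.70 at 32 h. The error of *Per3* was 0.61 at 20 h and 1.01 at 4 h. That of the *Per1* clone probe at 4 h, 1.06, was above 0.62. That of *Cry1* at 4 h, 0.35, lay between 0.16 and 0.62, and *Cry1* had signals in both ranges. Neither the spot errors nor this scatter include the spread between cultures.

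The ratios themselves moved with the scaling. The median ratio of all probes at 4 h ranged from -0.23 with the spike-in controls to 0.17 with the 75th percentile. *Cry1* ranged from 1.12 to 1.52 over the 6 scalings and stayed above 2-fold in each. The variant 1 probe of *Cry2* ranged from 0.87 to 1.27, the variant 2 probe from 0.70 to 1.11 and *Per1* from 0.08 to 0.48, and all stayed above 0. At least 2-fold higher were thus 3 probes by the 75th percentile and by quantile normalization, 2 where that percentile was taken over probes well above background everywhere, and 1, *Cry1*, by the median, the spike-in controls or no scaling. With normexp background correction, which adds an offset of 50, *Cry1* fell to 0.81 and the variant 1 probe of *Cry2* alone kept a ratio above 2-fold, at 1.24.

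**Figure D3:**
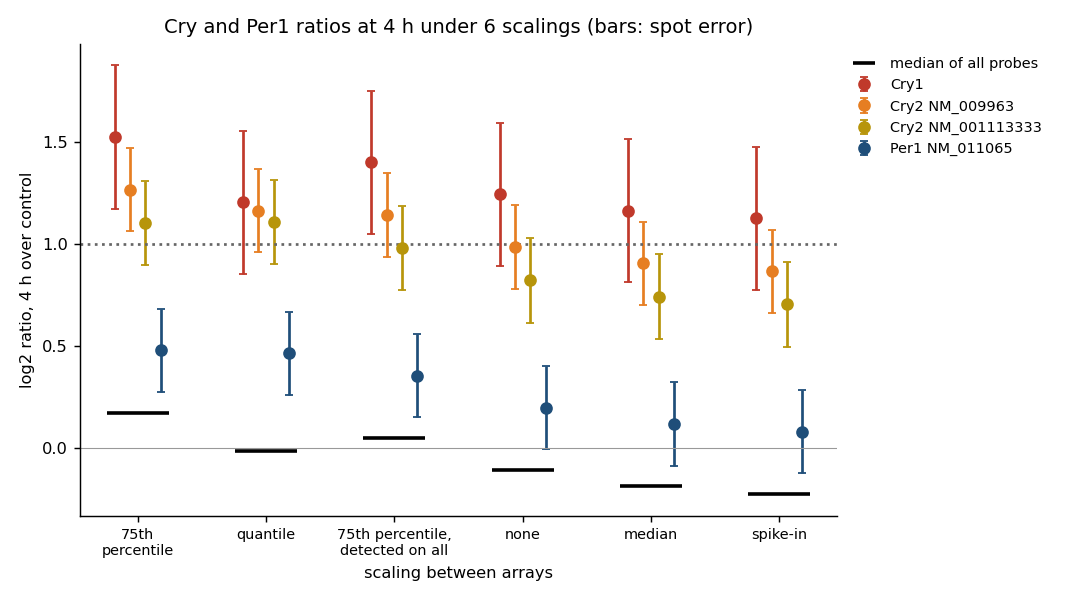
Log2 ratio of 4 h over control (y axis) of the 4 Per and Cry probes measured on both arrays, under 6 scalings between arrays (x axis). Bars are spot errors, black dashes the median of all probes under that scaling and the dotted line 2-fold; every probe stays above the dash, and Cry1, at 1.12 to 1.52, stays above the dotted line.

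At 20 h after cOS-pulse the probes lay near the control. *Cry1* had a log2 ratio of 0.05 ± 0.40, *Cry2* 0.42 ± 0.20 and 0.33 ± 0.21, and *Per1* 0.17 ± 0.20. *Per2* was 1.02-fold higher by its own scaled signals, and *Per3* at least 1.13-fold higher. Both log2 bounds were within their spot errors of 0.47 and 0.61. Of the 7 probes, 0 were at least 2-fold higher, beside 0.763% of all probes, and 0 were lower, beside 1.87%. At 32 h the *Cry2* ratios were 0.39 ± 0.20 and 0.42 ± 0.21 and the *Per1* ratio 0.01 ± 0.20, and *Cry1*, no longer well above background, was at least 1.07-fold lower. *Per3* was at least 1.34-fold and the clone probe of *Per1* at least 1.59-fold higher at 32 h, and *Per2* had no ratio. Again 0 of the 7 were at least 2-fold higher, beside 1.15%, and 0 lower, beside 1.43%. These late *Cry2* values were between 1.57 and 2.07 spot errors from 0, and they lay above 92.7% and 87.9% of probes at 20 h and above 90.1% and 91.7% at 32 h. On these arrays the upper 5% of all measured probes began at 0.50 and 0.54. Under the 6 scalings they ranged from 0.31 to 0.75 at 20 h and from 0.38 to 0.60 at 32 h.

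Compared with 4 h, *Cry1* at 20 h was 2.78-fold lower (log2 ratio -1.47 ± 0.30), and at 32 h at least 3.07-fold lower. *Cry2* at 20 h was lower by log2 ratios of -0.84 ± 0.20 and -0.78 ± 0.21, and at 32 h by -0.88 ± 0.20 and -0.68 ± 0.21. The order of the *Cry2* levels over the arrays after scaling was 4 h, then 20 h and 32 h, which did not differ beyond their spot errors, then the control. Across the scalings *Cry1* at 20 h ranged from -1.47 to -0.86 against 4 h, and the *Cry2* probes from -0.84 to -0.16. *Per1* at 20 h against 4 h went from -0.30 to 0.31 and so changed direction with the scaling. These comparisons with 4 h were added after the data were seen, and they share the 4 h array with the rise over the control.

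Between 20 h and 32 h, the pair of arrays meant for circadian change, the measured ratios of *Per1* (0.17 ± 0.20), *Cry2* (0.04 ± 0.20 and -0.10 ± 0.21) and *Per3* (-0.25 ± 0.43) were all within their spot errors. *Cry1* was at least 1.11-fold and *Per2* at least 1.06-fold higher at 20 h, since both passed the background flag at 20 h and missed it at 32 h. Taken from their own dim signals, without the background limit, these log2 ratios were 0.55 ± 0.49 for *Cry1* and 0.75 ± 0.66 for *Per2*. Of the 7 probes, 0 were at least 2-fold higher at 20 h, beside 0.497% of all probes, and 1 was lower, beside 1.06%: the clone probe of *Per1*, at least 2.03-fold lower at 20 h (log2 bound -1.02). This bound ranged from -1.02 to -0.87 over the 6 scalings and missed 2-fold under median, quantile, spike-in and no scaling. The RefSeq probe of the same gene lay on the other side of 0.

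The spots of the *Per1* clone probe (row 512, column 81) and of *Per3* (row 523, column 78) lie close together near a corner of the array, and on the 32 h array this corner was bright. The local background beside them was 50 and 53, higher than at 99.2% and 99.5% of the spots of that array, whose median was 34. Of the 65 spots within 10 rows and 5 columns of the *Per1* clone probe that were not well above background in the control, 23.1% were well above it at 32 h, and of the 65 around *Per3* 20.0% were, beside 4.32% of all such spots. The median log2 ratio of these neighbours to the control was 1.53 around the *Per1* clone probe and 1.16 around *Per3*, beside 0.07 over all 19849 such spots. The own log2 ratio of the *Per1* clone probe to the control at 32 h, 2.01 ± 0.95, was above that of 70.8% of its neighbours, and the 0.95 ± 0.62 of *Per3* was above that of 40% of them. After subtraction of the excess of the neighbours, the values at 32 h were 0.55 and -0.14. For 20 h over 32 h, the same subtraction took the own log2 ratio of the *Per1* clone probe from -2.49 to -1.13. Its spot error was 1.03, and the bound of -1.02 was not corrected in this way. *Per3* turned from -0.25 to 0.68, with a spot error of 0.43.

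**Figure D4:**
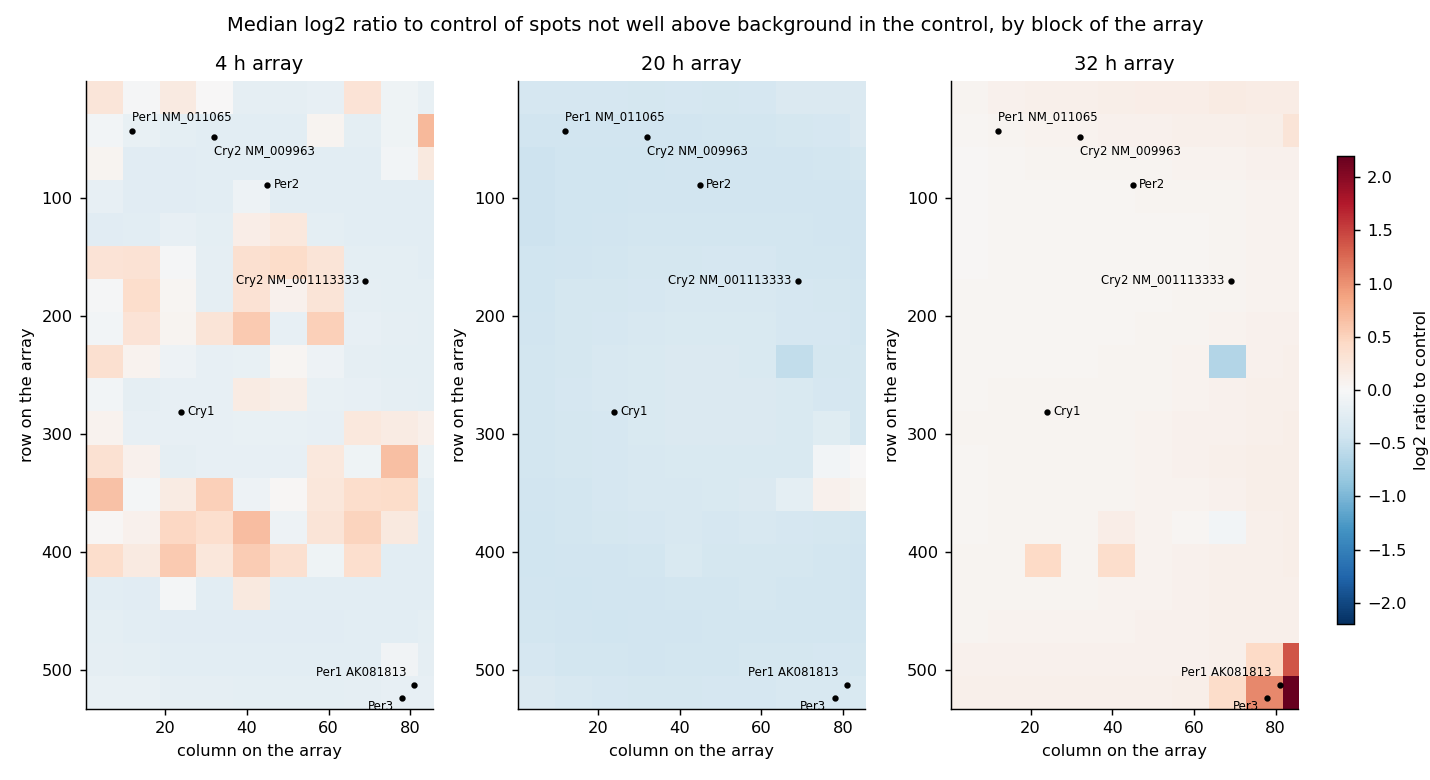
Median log2 ratio to the control (colour) of the spots not well above background in the control, in blocks of 28 rows and 9 columns over the array surface (axes: column and row), for the 4 h, 20 h and 32 h arrays. Black dots are the spots of the Per and Cry probes; on the 32 h array 3 blocks, the highest at 2.20, lie over 0.5 above the median block of 0.07, at the corner that holds Per3 and the Per1 clone probe. On the 4 h array 22 blocks, the highest at 0.71, lie that far above the median block of -0.17, and on the 20 h array 0 do.

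Around the other 5 probes the neighbours' median at 32 h was between 0.05 and 0.07, near that of all such spots. At 20 h, where the neighbours of *Per3* (-0.34) were like all such spots (-0.38), the own ratio of *Per3* to the control was 0.70 ± 0.61, and it was above that of 96.9% of its neighbours. The control spot of *Per3* had a local background of 45.5, itself higher than at 97.7% of spots. Set against its 4 h signal, the lowest of the 4, *Per3* at 20 h was at least 1.27-fold higher. For *Cry1* at 4 h the neighbours' median was 0.17 above that of all such spots, 16.1% of them were well above background beside 15.8% of all, and subtraction of the 0.17 left a log2 ratio of 1.36.

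The other genes of the loop, taken from lists of known clock genes, are described by counts of probes at 4 h, beside the 6.77% higher and 4.94% lower over the array. Of the 6 probes of the activators that drive *Per* and *Cry*, 3 had a measured ratio, and 1 was at least 2-fold higher and 0 lower. *Arntl*, which encodes BMAL1, was higher by 1.07 ± 0.20 and *Clock* by 0.66 ± 0.20, the measured probe of *Arntl2* (BMAL2) was at -0.12 ± 0.21, and *Npas2* was not well above background. Of the 9 probes of the Rev-erb and Ror nuclear receptors, which feed back on *Arntl* through ROR elements, 2 were higher and 1 lower by a bound (*Rorb*), and the 4 measured ranged from 0.88 to 1.09. *Nr1d1* (REV-ERBα, a repressor) had a log2 ratio of 1.09 ± 0.22 and *Nr1d2* of 1.07 ± 0.20 and 0.88 ± 0.20 by its 2 probes. The median of the 4 lay 0.83 above that of all probes.

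Other repressors and outputs of the clock lay on both sides of the control. Their list was set up as E-box-driven, and this was not tested for any of its genes. Of its 11 probes, 0 were higher and 3 lower. Of these 3, *Dbp*, whose protein binds D-boxes such as those before *Per3*, had -1.19 ± 0.21 and -1.34 ± 0.21. *Hlf*, of the same family, had -1.70 ± 0.21. *Bhlhe40* (DEC1, a repressor that competes for E-boxes) was at 0.97 ± 0.22 and *Nfil3*, which represses through D-boxes, at 0.61 ± 0.20. The measured probes of this list therefore ran from -1.70 to 0.97, with a median of 0.11 that ranged from -0.29 to 0.11 over the scalings. All 3 falls past 2-fold were past it under each of the 6 scalings, whereas *Arntl*, *Nr1d1* and *Nr1d2* fell below 2-fold under 4 of them.

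Enzymes that act on PER and CRY proteins were mixed. Of 35 probes for 18 kinases, ubiquitin ligase subunits and deubiquitinases, 3 were higher and 1 lower at 4 h, and the median of 29 measured was 0.44, 0.27 above the median of all probes. Under median, spike-in or no scaling 3 were higher and 3 lower, and the median ranged from 0.04 to 0.44 over the 6 scalings. Past 2-fold, *Csnk2a2* (a catalytic subunit of CK2, which phosphorylates PER2 and BMAL1) was at 1.61 ± 0.20, and another of its probes was past 2-fold by a bound, but the remaining probe was at -0.44 ± 0.20. *Csnk1e* (CK1ε, a PER kinase) had 1 probe at 1.92 ± 0.31 and others at 0.54 ± 0.20 and 0.44 ± 0.20. *Btrc*, which encodes the ligase subunit that binds phosphorylated PER, had 1 probe at -1.49 ± 0.23 and 1 at 0.51 ± 0.28. Probes of 1 gene thus disagreed in direction for *Csnk2a2* and *Btrc*, and in size only for *Csnk1e*. *Usp2*, a deubiquitinase of the clock, was at -0.78 ± 0.21.

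Of 14 probes for 8 proteins found in PER/CRY complexes, 5 were higher and 2 lower. The higher ones belong to RNA-binding proteins, *Ddx5* (1.13 ± 0.20 and 1.16 ± 0.20), *Sfpq* (1.05 ± 0.20 and 1.01 ± 0.20) and *Dhx9* (1.40 ± 0.24), and the lower ones to *Timeless* (-2.05 ± 0.24 and -1.83 ± 0.21), which also acts at replication forks. Under median, spike-in or no scaling 1 was higher and 3 lower. Quantile normalization gave 2 higher and 2 lower, and the percentile over probes well above background everywhere gave 3 and 2. The median of this list went from 0.23 to -0.17 under spike-in scaling. Between 20 h and 32 h, 0 probes of any of these lists were past 2-fold in either direction. The measured ratios furthest from 0 among the clock lists, picked out after their values were seen, were those of *Arntl* (-0.85 ± 0.21), *Dhx9* (-0.76 ± 0.25) and *Dbp* (0.66 ± 0.21 by either probe), each further from 0 than any measured for *Per* and *Cry* between these arrays.

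**Figure D5:**
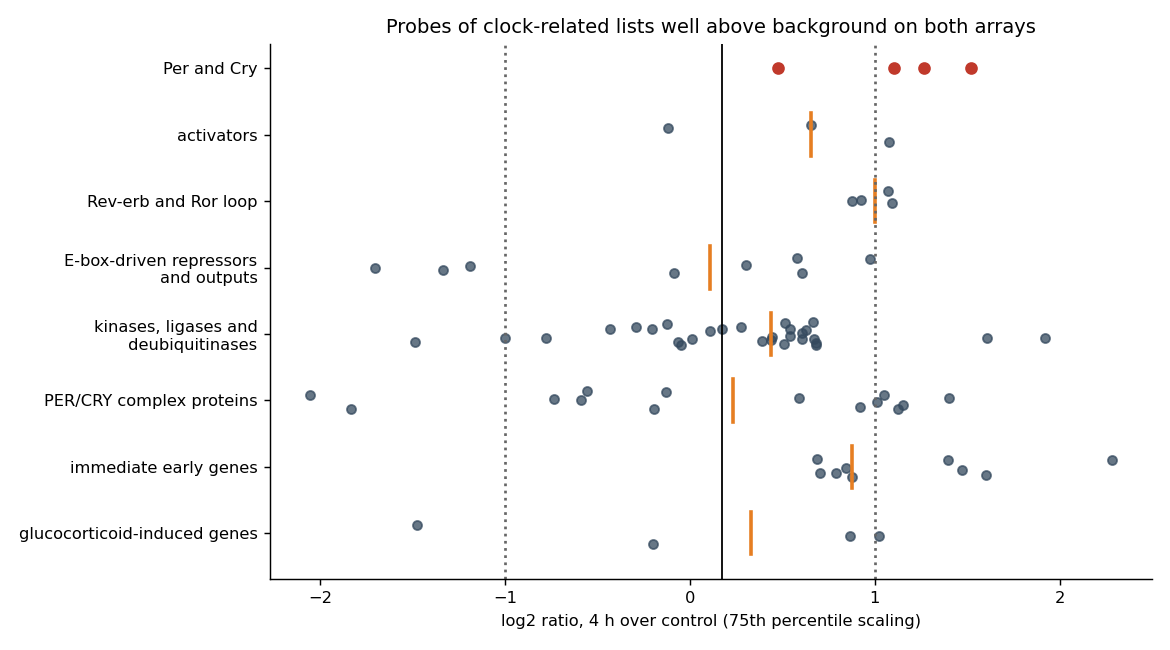
Log2 ratios of 4 h over control (x axis, 75th percentile scaling) of the measured probes, for Per and Cry (red) and for lists of related genes (dark points, spread vertically only for display; orange bars are list medians). The black line is the median of all probes, 0.17, and the dotted lines mark 2-fold. The Rev-erb and Ror probes lie together between 0.88 and 1.09. The repressors and outputs labelled as E-box-driven, and the complex proteins, spread to both sides.

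The patterns most like those of the members were found among 15105 probes of named genes well above background on all 4 arrays, names of clones and predicted genes left out, by the Euclidean distance between their 3 log2 ratios to the control. Nearest to the variant 1 probe of *Cry2* were *Arl8a* (distance 0.05), *Derl1* (0.08) and *Tbc1d15* (0.08), and nearest to the variant 2 probe *Abcc5* (0.03), *Nfkbiz* (0.06) and *Ifi202b* (0.08). Within a distance of 0.2 lay 49 (0.324%) and 70 (0.463%) of the probes compared. For the RefSeq probe of *Per1* the nearest were *Zdhhc17* (0.02), *Sirt1* (0.03) and *Rbm28* (0.03), and 611 probes (4.05%) lay within 0.2, so its small ratios were common on these arrays. All 3 ratios of a probe share the control array, and no measure of chance was taken. *Cry1*, *Per2*, *Per3* and the *Per1* clone probe were not well above background on all arrays and had no such list.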

How the data were processed

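Total RNA was labelled with Cy3 and hybridized to Mouse GE 4x44K v2 arrays (Agilent). The authors deposited intensities of each spot from Agilent Feature Extraction 10.7.3.1, with the background of the spot subtracted, and a value table. In each column of the table all 44397 spots equal those intensities over 1 constant, within 0.1%. The 7 probes, the gene lists and the comparisons were chosen with earlier results of these data known. By rule, every probe of the 5 genes was named, and genes of the lists only beside them.

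From the deposited intensities, log2 signals were averaged over the spots of a probe without an outlier flag, the array's 75th percentile was subtracted, and a probe was well above background where at least 50% of its spots carried that flag. Ratio errors combine the software's errors of both spots. Tried besides were other scalings (median, quantile, the 75th percentile over probes well above background everywhere, spike-in controls, none), normexp with an offset of 50 (limma 3.58.1, R 4.3.3), other uses of the flags, the deposited table, and thresholds of 1.5-fold and 3-fold. Chosen after seeing the data were the comparisons with 4 h, the spike-in scaling without 1 probe, the counts without 2 probes, and the subtraction of the neighbours' excess from the ratio of a spot. The significance analysis of microarrays (SAM) named in the methods was not run, since each condition has 1 array, and precision is limited by this number of arrays. The lists held, besides those in the text, immediate early and glucocorticoid-induced genes. Promoter windows and motif shares came from RefSeq (GRCm38.p6). The ratio step was tested on simulated data. Software was pandas 2.3.3, numpy 2.4.6 and matplotlib 3.10.9 under Python 3.11.15.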

Additional observations from a re-analysis of the deposited data

How the results depend on the processing

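The number of *Per* and *Cry* probes at least 2-fold higher at 4 h, 3 by the 75th percentile, was 1 under scaling by the median, by the spike-in controls (also without the 1 spike-in probe furthest from the others, a choice made after seeing the data) and with no scaling, where *Cry1* was the 1 left, and 1 under normexp, where the variant 1 probe of *Cry2* was. It was 0 at 3-fold. At 32 h over the control the count higher was 0, and 1 with own signals without a detection filter, with the positive and significant flag and at 1.5-fold, each time the *Per1* clone probe. At 20 h over 32 h the count lower was 1, and 0 with median, quantile, spike-in (with or without that 1 probe) or no scaling, normexp, probes well above background on both arrays, 3-fold, and without the *Per1* clone and *Per3* probes. The other counts of *Per* and *Cry* probes past 2-fold in the comparisons with the control and of 20 h over 32 h were within 1.5 times. *Cry1* at 20 h over 4 h, -1.47, missed 2-fold under spike-in (-0.88) and no scaling (-0.86). At 4 h, the Rev-erb and Ror probes higher went from 2 to 0, and the kinase and ligase probes lower from 1 to 3, under median, spike-in and no scaling. With the percentile over probes well above background everywhere these counts were 0 and 2. With quantile normalization they were 2 and 2. Of the single ratios under these settings, 377 moved by less than the spot error and 74 by more. No paired analysis was possible because each condition has 1 array. Faint signals limit *Per2*, *Per3*, the *Per1* clone probe and *Cry1*.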

Other observations

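Some genes that respond fast to resetting stimuli passed 2-fold at 4 h. Of 12 probes for 9 immediate early genes, 5 were past 2-fold upward and 0 downward, beside 6.77% and 4.94% of all probes, and the median of the 9 measured was 0.88 (log2), 0.71 above the median of all probes. They were *Fosb* (2.29 ± 0.23) and *Fos* (at least 2.01), subunits of AP-1, *Ier2* (1.60 ± 0.24), *Nr4a1* (1.47 ± 0.20), an orphan nuclear receptor, and *Egr1* (1.39 ± 0.20), a zinc finger factor. Under spike-in scaling 4 of them were past 2-fold. *Egr1* was then below the control at 20 h (-2.03 ± 0.20) and at 32 h (-2.15 ± 0.21). Both ratios use the same control array.

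Of 5 probes for glucocorticoid-induced genes, which follow another route of resetting, 1 was higher at 4 h, *Sgk1* (1.02 ± 0.20), a kinase, and 1 lower, *Fkbp5* (-1.48 ± 0.20), a co-chaperone of steroid receptors, and the list had 0 past 2-fold at 20 h and 32 h. Under the other 5 scalings *Sgk1* was below 2-fold at 4 h, while 1 probe of the list was lower under each. *Nfil3*, which represses through D-boxes such as those before *Per3*, was at 0.61 ± 0.20 at 4 h, 1.01 ± 0.20 at 20 h and 1.15 ± 0.20 at 32 h. Under the 6 scalings, 0 to 3 probes of its list were past 2-fold at 20 h and 1 at 32 h.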
